A study of Drosophila melanogaster with 32 samples.

Results

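The 10 genes described here were chosen for their rise with age in Smurfs, flies whose whole body turns blue on dyed food because the dye has crossed the intestinal wall. They were selected on the contrast of 40-day against 20-day Smurfs in these same counts, so their rise in Smurfs is a description, and what was tested is their behaviour in non-Smurfs of all ages and in both kinds of fly at 30 days. The 30-day Smurfs were not part of that contrast, but were in the fit that gave its p-values. The genes are CG3699 (FBgn0040349), CG18547 (FBgn0037973), St3 (FBgn0265052), CG9270 (FBgn0032908), CG9008 (FBgn0028540), CG5819 (FBgn0034717), CG31751 (FBgn0086909), CG4363 (FBgn0034663), Rab39 (FBgn0029959) and CG4928 (FBgn0027556), which are 10 of 17737 genes listed. All 10 passed the filter on low counts, in non-Smurfs as well as in Smurfs.

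In non-Smurfs the same genes were higher at 40 days than at 20 days in 10 of 10 cases, by 1.12-fold to 1.53-fold. Of them 3 passed the test, CG9270, CG18547 and CG4363, beside 1.57% of all genes called upward. With 1 sample left out, 0 to 3 of the 10 passed, and 39 to 409 genes in all, against 194 with every sample. Between Smurfs and non-Smurfs of 30 days CG3699 alone passed the test, with Smurfs at 0.633 of the non-Smurf level. Of all genes 14.4% were called in either direction, so with 1 of 10 the members were called no more often than genes at large. The log2 fold changes of the other 9 members lay between -0.25 and 0.15.

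The flies were mated females of the Drs-GFP reporter line, an isogenic background used for all groups, and all had been given the blue dye. Each of the 32 samples was a pool of 8 whole flies drawn from the same ageing population. The groups were Smurfs of 20 days (4 samples), of 30 days (6 samples) and of 40 days (6 samples), and non-Smurfs of 20 days (4 samples), of 30 days (6 samples) and of 40 days (6 samples). Smurfs were collected within 1 day of turning blue, within 5 hours of it or at an unknown time (the mixed samples), non-Smurfs were taken at the same moment as their Smurfs, and no 5-hour sample was made at 20 days. The labels give 32 days for the mixed samples of the 30-day groups. Samples of a group are separate pools of the same population, so the p-values below measure the spread between pools.

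Several of these genes belong to families that process foreign or waste compounds. In this chemistry, reductases and dehydrogenases first alter a compound, transferases such as sulfotransferases attach a polar group to it, and transporters of the ABC family move it across a membrane. In flies these steps run mainly in the midgut, the Malpighian tubules (the fly kidney) and the fat body (its liver and fat store), all of which are contained in a whole-fly sample. Other members belong to membrane traffic and to sugar metabolism.

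The total count per sample lay between 12164198 and 22798065. Levels are given as CPM, a gene's counts scaled to a common library size by TMM, and every change as a log2 fold change (log2FC) with its standard error (SE) from edgeR. Over all samples the median level per kilobase of exon ran from 2.68 CPM per kilobase for CG9270 to 89.9 CPM per kilobase for CG4363, with CG4928 at 32.9 and Rab39 at 32.8 CPM per kilobase next below the highest. In a bulk sample, fewer cells of a type and less RNA per cell cannot be told apart.

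The choice of the genes rested on 40-day against 20-day Smurfs. Among the increases of that contrast the 10 genes hold 10 of the 12 smallest p-values, and the other 2 places belong to CR18228 and the non-coding gene lncRNA:CR43417. The last gene inside, CG4928, had a log2FC of 0.94 and the next outside, danr, of 1.26. By that choice all 10 passed the threshold, beside a background of 10.5% of the genes tested that rose, and every 40-day Smurf was above every 20-day Smurf for all 10, beside 7.59% of all genes. The median log2FC of the members was 0.97, against 0.01 over all genes tested, and nothing further is read from these values.

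**Figure D1:**
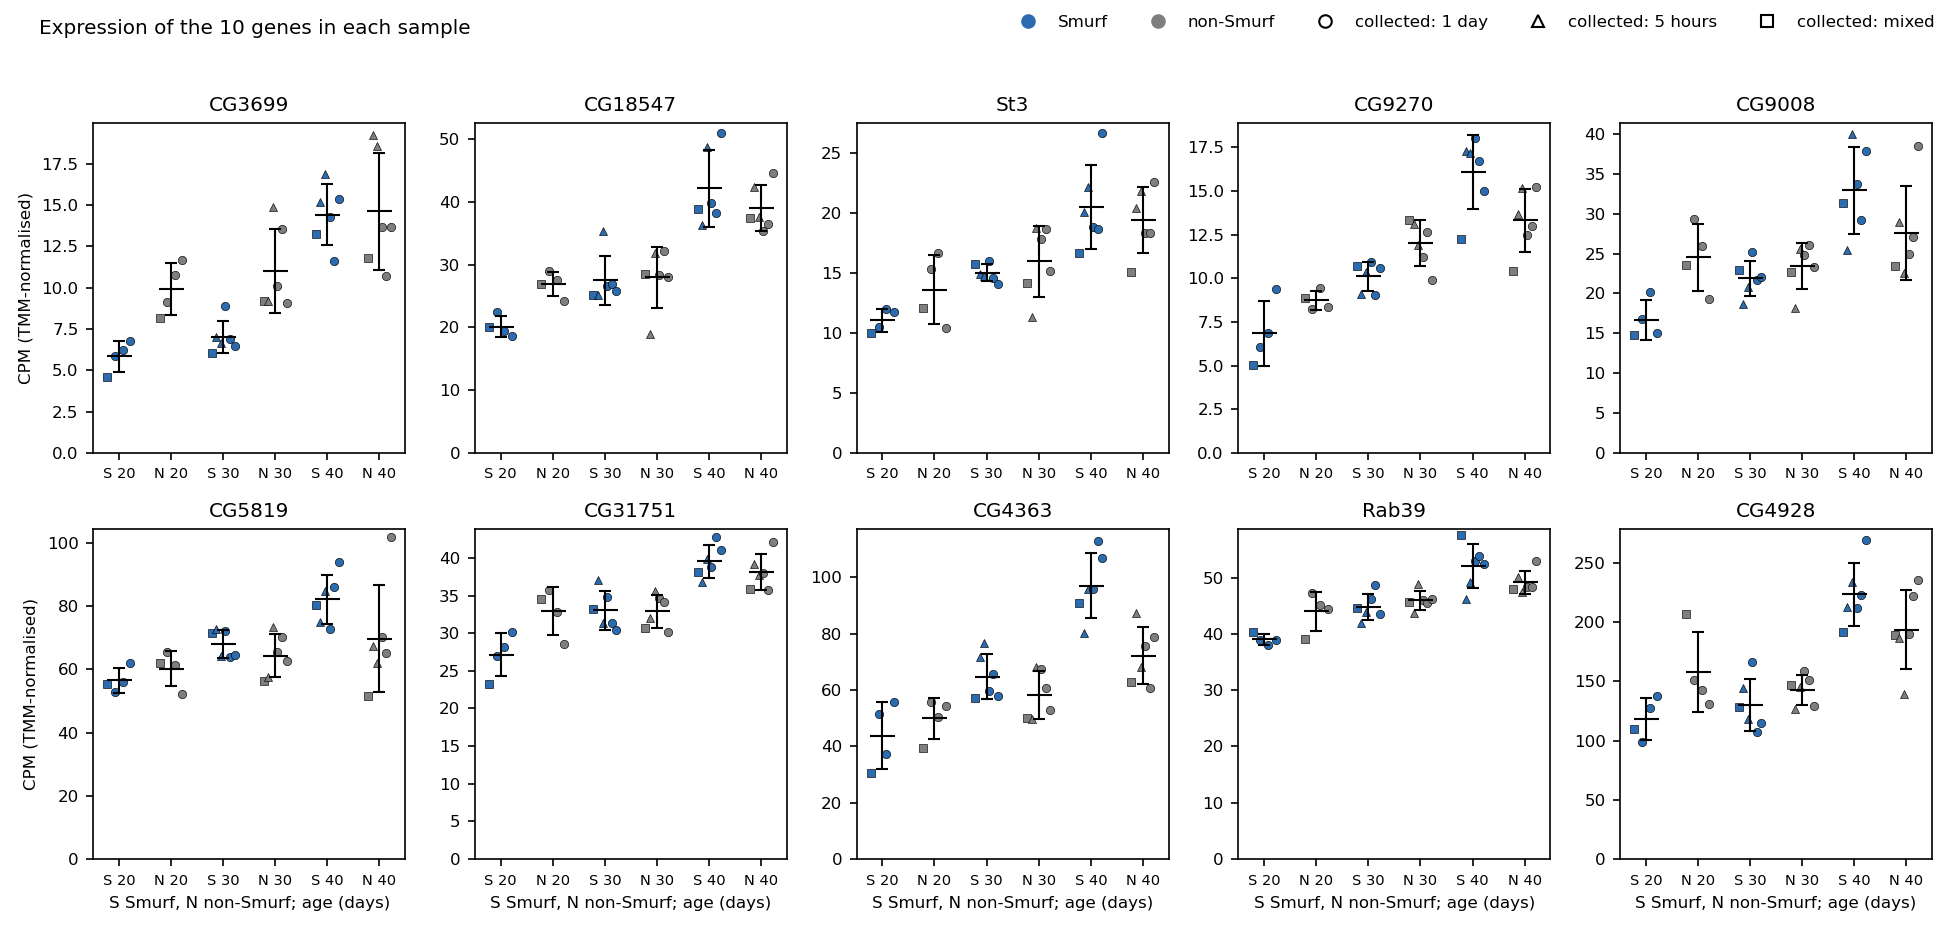
CPM of each of the 10 genes in every sample (points; shape gives the collection time), with the mean and SD of each group (bars), for Smurfs (blue) and non-Smurfs (grey) at 20, 30 and 40 days. In every panel the 40-day Smurfs lie above the 20-day Smurfs, the contrast used for the choice, while the 40-day and 20-day non-Smurfs overlap in 6 of the 10 panels.

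The reductases come first. CG3699, predicted to be a short-chain dehydrogenase/reductase, is a single exon of 839 bp at X:946662-947500 on the minus strand. In Smurfs its lowest, median and highest levels at 40 days were 11.6, 14.7 and 16.9 CPM, against 4.57, 5.85, 6.22 and 6.78 CPM in the 20-day samples. In non-Smurfs they were 10.7, 13.7 and 19.2 CPM at 40 days, against 8.18, 9.14, 10.8 and 11.7 CPM at 20 days. The non-Smurf groups overlapped in 1 of the 6 older samples, and the highest older samples were those collected at 5 hours. The log2FC in non-Smurfs was 0.56 (SE 0.19; edgeR adjusted p = 0.155) and did not pass the test, while in Smurfs it was 1.32 (SE 0.14), the highest of the 10. Within the non-Smurfs collected at 1 day the log2 difference was 0.26, and in the mixed ones, with 1 sample a group, 0.52.

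CG18547, predicted to be an aldo-keto reductase, lies at 3R:11978574-11980390 on the minus strand. Its levels in 40-day Smurfs were 36.3, 39.3 and 50.9 CPM (lowest, median and highest), against 18.6, 19.4, 20.1 and 22.4 CPM in 20-day Smurfs. In 40-day non-Smurfs they were 35.4, 37.5 and 44.7 CPM, against 24.2, 26.9, 27.5 and 29.0 CPM in 20-day non-Smurfs. Every older sample was above every younger sample in both kinds of fly. CG18547 rose 1.45-fold with age in non-Smurfs (log2FC 0.54, SE 0.12; edgeR adjusted p = 0.0331). In Smurfs the log2FC was 1.08 (SE 0.12).

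St3 is a sulfotransferase, which transfers a sulfate group to its substrate, and lies at 2R:23683377-23687980 on the plus strand, where 75 bp of its exons overlap l(2)efl on the other strand. Its levels in 40-day Smurfs were 16.7, 19.4 and 26.6 CPM (lowest, median and highest), against 10.0, 10.5, 11.7 and 12.01 CPM in 20-day Smurfs. In 40-day non-Smurfs they were 15.1, 19.4 and 22.6 CPM, against 10.4, 12.04, 15.3 and 16.7 CPM in 20-day non-Smurfs. The 40-day medians were close in both kinds of fly, and in non-Smurfs the lowest 40-day sample lay among the 20-day samples. The log2FC was 0.52 (SE 0.16; edgeR adjusted p = 0.111) in non-Smurfs, not past the threshold, and 0.91 (SE 0.11) in Smurfs.

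CG9270, an ABC transporter of the C subfamily that includes the multidrug resistance proteins, lies at 2L:20929456-20934113 on the minus strand, and 70 bp of its exons overlap annotated elements of the other strand. It had the lowest level per kilobase of the 10. In 40-day Smurfs it reached 12.3, 17.0 and 18.0 CPM (lowest, median and highest), against 5.03, 6.06, 6.85 and 9.40 CPM in 20-day Smurfs. In 40-day non-Smurfs it reached 10.4, 13.3 and 15.2 CPM, against 8.24, 8.37, 8.85 and 9.46 CPM in 20-day non-Smurfs. The older non-Smurfs did not overlap the younger ones. CG9270 rose 1.53-fold in non-Smurfs (log2FC 0.62, SE 0.12; edgeR adjusted p = 0.0188), the highest fold among the members, and its log2FC in Smurfs was 1.25 (SE 0.16).

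CG9008, predicted to interconvert the anomers of a hexose phosphate, stands for sugar metabolism. It lies at 2L:13774340-13780165 on the minus strand, with 68 bp of exon shared with genes of the other strand. In 40-day Smurfs its levels were 25.4, 32.5 and 40.0 CPM (lowest, median and highest), against 14.8, 15.1, 16.8 and 20.2 CPM in 20-day Smurfs. In 40-day non-Smurfs they were 22.5, 26.0 and 38.5 CPM, against 19.3, 23.5, 25.9 and 29.3 CPM in 20-day non-Smurfs. The non-Smurf groups overlapped widely, with 1 of 6 older samples above all of the younger. The log2FC in non-Smurfs was 0.17 (SE 0.15; edgeR adjusted p = 0.587), against 1.00 (SE 0.13) in Smurfs. With 1 sample left out, the non-Smurf value lay between 0.052 and 0.27.

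CG4363, a protein of the Ly6 type, a small cysteine-rich fold usually held at the cell surface, lies at 2R:21834230-21835047 on the minus strand and had the highest level per kilobase. In 40-day Smurfs its levels were 80.0, 95.7 and 113 CPM (lowest, median and highest), against 30.5, 37.3, 51.6 and 55.8 CPM in 20-day Smurfs. In 40-day non-Smurfs they were 60.8, 71.8 and 87.3 CPM, against 39.4, 50.4, 54.2 and 55.6 CPM in 20-day non-Smurfs. Both age contrasts were free of overlap, and 5 of 6 Smurfs of 40 days lay above the highest non-Smurf of that age. CG4363 rose 1.45-fold in non-Smurfs (log2FC 0.54, SE 0.13; edgeR adjusted p = 0.0386), with a log2FC of 1.16 (SE 0.15) in Smurfs.

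Rab39, a small GTPase that directs vesicle traffic, lies at X:7734923-7736756 on the plus strand and had the smallest change with age in Smurfs. Its levels in 40-day Smurfs were 46.3, 52.6 and 57.6 CPM (lowest, median and highest), against 37.9, 38.9, 39.0 and 40.3 CPM in 20-day Smurfs. In 40-day non-Smurfs they were 47.5, 48.3 and 52.9 CPM, against 39.1, 44.4, 45.2 and 47.2 CPM in 20-day non-Smurfs. Here too every older non-Smurf was above every younger, by a narrow margin. The log2FC was 0.17 (SE 0.057; edgeR adjusted p = 0.159) in non-Smurfs and 0.43 (SE 0.057) in Smurfs.

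CG4928 encodes an UNC93-like membrane protein and lies at X:16913180-16938209 on the plus strand. In 40-day Smurfs its levels were 191, 218 and 269.8 CPM (lowest, median and highest), against 98.7, 109.8, 127 and 137 CPM in 20-day Smurfs. In 40-day non-Smurfs they were 139, 189.9 and 235 CPM, against 131, 143, 151 and 207 CPM in 20-day non-Smurfs. The mixed sample was the highest of the 20-day non-Smurfs, and only 2 of 6 older samples were above it. The log2FC in non-Smurfs was 0.30 (SE 0.14; edgeR adjusted p = 0.288), against 0.94 (SE 0.12) in Smurfs.

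No role is given here for CG5819 (2R:22293400-22296955, plus strand) and CG31751 (2L:18677221-18683715, plus strand). CG5819 had 72.8, 82.4 and 93.8 CPM in 40-day Smurfs (lowest, median and highest), against 52.8, 55.3, 56.0 and 62.0 CPM in 20-day Smurfs. In 40-day non-Smurfs it had 51.5, 66.4 and 102 CPM, against 52.3, 61.3, 61.9 and 65.3 CPM in 20-day non-Smurfs. Its older non-Smurfs thus held both the lowest and the highest sample of the whole series, and the log2FC was 0.22 (SE 0.14; edgeR adjusted p = 0.460), against 0.55 (SE 0.072) in Smurfs. With 1 sample left out, its non-Smurf value lay between 0.074 and 0.29. CG31751 had 36.8, 39.3 and 42.8 CPM in 40-day Smurfs, against 23.3, 26.9, 28.2 and 30.1 CPM in 20-day Smurfs. In 40-day non-Smurfs it had 35.8, 37.8 and 42.1 CPM, against 28.5, 32.8, 34.5 and 35.8 CPM in 20-day non-Smurfs. All but 1 of its older non-Smurfs were above the younger, with a log2FC of 0.22 (SE 0.075; edgeR adjusted p = 0.157), against 0.56 (SE 0.074) in Smurfs.

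Counted together, 3 of the 10 genes rose between 20 and 40 days in non-Smurfs by edgeR's quasi-likelihood test with Benjamini-Hochberg adjustment, beside 1.57% of the 10260 genes tested. A further 5 had an unadjusted p under 0.05 only, so that 8 did in all, beside 10.1% of all genes that were higher at that unadjusted threshold. The median log2FC of the members was 0.41, against -0.01 over all genes, and 4 members did not overlap between the ages (CG18547, CG9270, CG4363 and Rab39), beside 3.37% of all genes. Each of the 10 had a larger log2FC in Smurfs than in non-Smurfs, by 0.25 for Rab39 to 0.81 for CG9008. That gap holds the contrast on which the genes were chosen, so it was not tested.

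The number of members past the threshold in non-Smurfs rested on few samples. It was 0 without the 20-day sample a or c, 1 without the 20-day sample b or the mixed 20-day sample, 1 without the 40-day sample o or c5, and 1, CG9270, when all mixed samples were left out. CG4363 also missed the threshold with the 1-day samples alone (edgeR adjusted p = 0.0634) and in a model of all 6 groups (edgeR adjusted p = 0.0583). The number of all genes called moved as well, to 39 to 409 with 1 sample left out, against 194 with every sample. It was 126 without the mixed samples, 127 in the model of 6 groups and 493 with the 1-day samples alone. Within non-Smurf samples collected at 1 day, all 10 were higher at 40 days, with a median log2 difference of 0.40, against -0.02 over all genes. In 1-day Smurfs all 10 were higher too, with a median of 0.96. In the mixed samples, with 1 sample a group, 7 were higher in non-Smurfs and 10 in Smurfs. The Smurf samples are those on which the genes were chosen, so the direction in Smurfs followed from the choice.

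**Figure D2:**
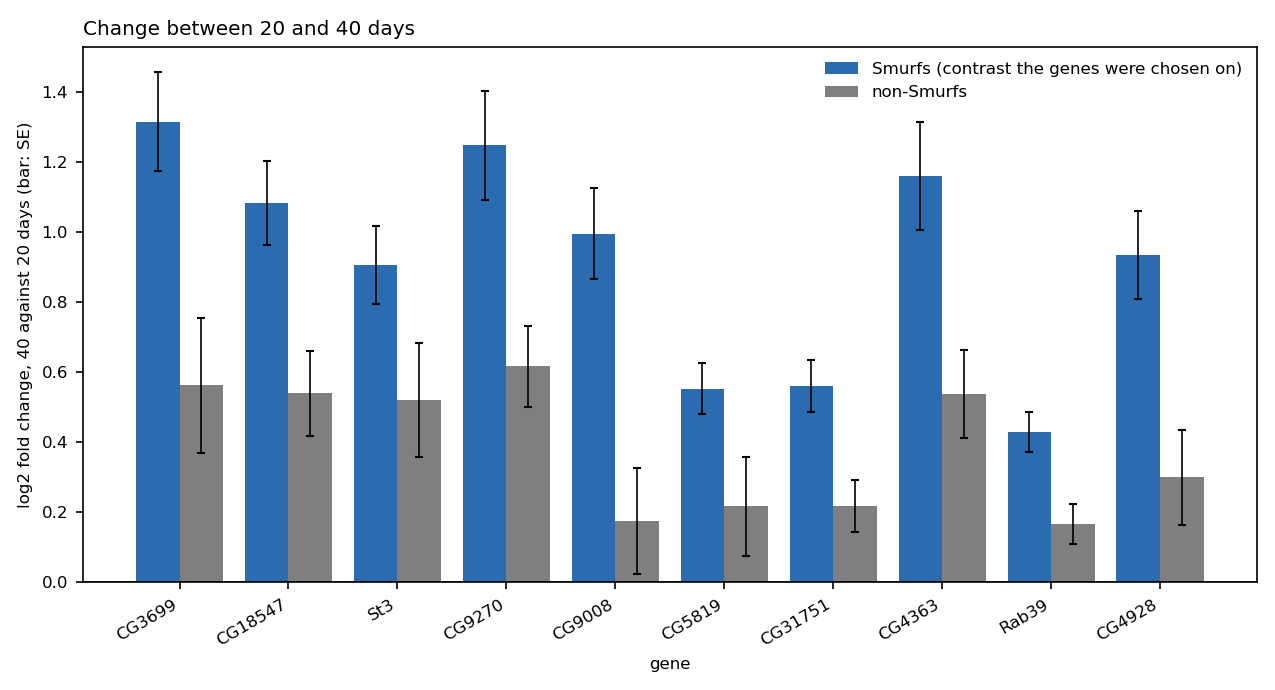
log2 fold change of each gene between 40 and 20 days with its SE, in Smurfs (blue), the contrast on which the genes were chosen, and in non-Smurfs (grey). All 20 bars lie above 0, and in each pair the Smurf bar is the taller, from 0.43 for Rab39 to 1.32 for CG3699.

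The age of 30 days places part of the change in time. In non-Smurfs of 30 against 20 days none of the 10 passed edgeR's test, beside 0.00975% of all genes (1 of 10260), and 1 member had an unadjusted p under 0.05, beside 7.76% of all genes. That member was CG9270, with 9.88, 12.3 and 13.3 CPM at 30 days (lowest, median and highest) and every sample above those of 20 days, beside 1.47% of all genes (log2FC 0.47, SE 0.12; edgeR adjusted p = 0.231). DESeq2, run as an alternative, called 1 member, the same gene (adjusted p = 0.0368), and 60 genes in all, against 1 by edgeR. The other 9 members had a log2FC between -0.13 and 0.24. This comparison shares its 20-day samples with that of 40 days.

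In Smurfs the corresponding step is a description, because it uses the 20-day Smurfs that entered the choice. All 10 were higher at 30 than at 20 days, by a log2FC of 0.14 for CG4928 to 0.56 for CG9270 and CG4363, with a median of 0.34. For 6 of them every 30-day sample was above every 20-day sample, beside 1.01% of all genes. Some members had most of the distance still ahead at 30 days: CG3699 had a median of 6.04 CPM at 20, 6.78 at 30 and 14.7 at 40 days in Smurfs, and CG4928 had 118, 123 and 218 CPM. Others were spread over both steps, as CG4363 with 44.5, 62.5 and 95.7 CPM and CG18547 with 19.7, 26.1 and 39.3 CPM.

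Smurfs and non-Smurfs of 30 days hold no sample of the 2 groups on which the genes were chosen. Only CG3699 passed the test there, 1 of 10 members beside 14.4% of all genes in either direction, so the members were not called more often than genes at large. Its levels were 6.05, 6.78 and 8.86 CPM in Smurfs (lowest, median and highest), against 9.09, 9.65 and 14.9 CPM in non-Smurfs. Every Smurf was below every non-Smurf, which held for 2.11% of all genes, and the log2FC was -0.66 (SE 0.15; edgeR adjusted p = 0.0113). Fewer genes fell than rose in this contrast, with 5.94% of the 10090 genes tested past the threshold downward. Within each collection time its log2 difference was -0.54 in 1-day, -0.77 in 5-hour and -0.59 in mixed samples. CG3699 passed with any of the 12 samples left out, and with the 1-day samples alone it had a log2FC of -0.56 and an adjusted p of 0.206 in edgeR.

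CG9270 had 9.02, 10.5 and 10.9 CPM in 30-day Smurfs (lowest, median and highest), against 9.88, 12.3 and 13.3 CPM in 30-day non-Smurfs. The log2FC of -0.25 (SE 0.093; edgeR adjusted p = 0.0861) did not pass the test, although all 6 Smurfs lay below the non-Smurf median. The other 8 genes had a log2FC between -0.14 (CG4928) and 0.15 (CG4363), with adjusted p of 0.349 or more in edgeR. Rab39, the tightest of them, had 41.9, 44.2 and 48.6 CPM in Smurfs, against 43.8, 45.8 and 48.8 CPM in non-Smurfs. The median over the 10 was -0.07, against 0.00 over all genes.

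At the ages that entered the choice, the same comparison is a description with no test. At 20 days all 10 had lower mean levels in Smurfs than in non-Smurfs, with a log2FC of -0.07 for CG5819 to -0.74 for CG3699 and a median of -0.30. For CG3699 and CG18547 every 20-day Smurf was below every 20-day non-Smurf, beside 12.8% of all genes. At 40 days 9 of 10 had a positive log2FC, up to 0.42 for CG4363, with a median of 0.16, and CG3699 stood at -0.02. The groups overlapped for all 10 at 40 days, beside 0.304% of genes with every Smurf above. The members were chosen for a low level in 20-day Smurfs and a high level in 40-day Smurfs, so the turn from negative to positive is partly fixed by the choice.

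**Figure D3:**
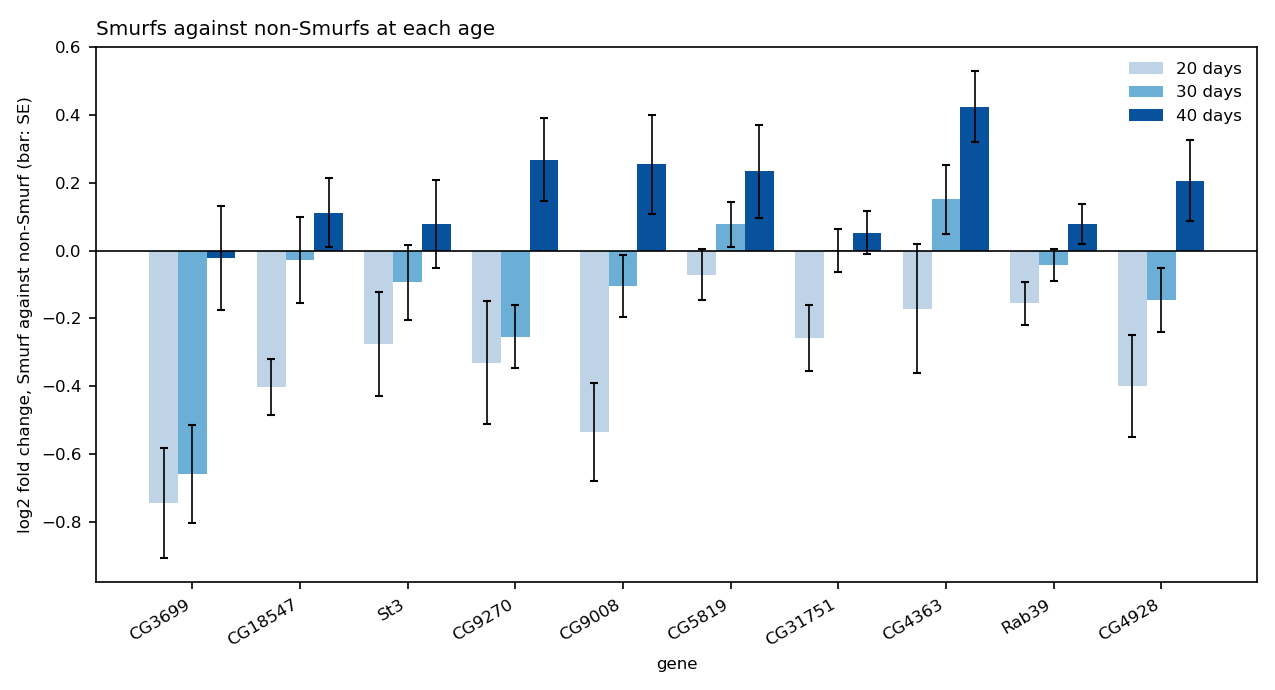
log2 fold change of Smurfs against non-Smurfs with its SE at 20, 30 and 40 days (light to dark blue) for each gene, of which only the 30-day bars hold neither group of the contrast used for the choice. All 20-day bars lie below 0, the 30-day bars run from -0.66 to 0.15, and 9 of 10 bars of 40 days lie above 0.

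Collection time differed between ages, since the 5-hour samples exist only at 30 and 40 days. In non-Smurfs of those ages none of the 10 genes passed edgeR's test between samples of the 5-hour and the 1-day collections, beside 0.0883% of all genes (9 of 10188). A single member, CG4928, had an unadjusted p under 0.05 (log2FC -0.25, SE 0.11; edgeR adjusted p = 0.215), beside 22.9% of all genes. DESeq2 called 0 of the 10 members and 533 genes in all. CG3699 had the highest value, 0.37 (SE 0.17; edgeR adjusted p = 0.227). At 30 days the genes with a positive difference of Smurfs against non-Smurfs numbered 3 in 1-day, 5 in 5-hour and 5 in mixed samples.

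Relatives of the members were examined in the same fits. In non-Smurfs of 40 against 20 days, 1 of 8 other aldo-keto reductases tested passed upward (CG12766, log2FC 1.17, SE 0.17; edgeR adjusted p = 0.0040), beside 1.57% of all genes. The list's median was 0.12. Of 12 other ABCC and Mdr transporters 1 passed upward (CG31793, log2FC 0.47, SE 0.085; edgeR adjusted p = 0.0127), with a median of 0.26. Of 16 other Ly6-type proteins 1 passed upward (CG14401, log2FC 0.65, SE 0.13; edgeR adjusted p = 0.0216), with a median of 0.13. None of these lists had a gene called downward, beside 0.322% of all genes. In the same order, 7 of 8, 9 of 12 and 11 of 16 genes had a positive log2FC. At an unadjusted p under 0.05 the lists held 2, 5 and 5 genes, beside 1681 of 10260 genes in either direction.

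Of 24 other Rab GTPases, 5 genes of galactose and aldose metabolism and 2 other sulfotransferases, none passed edgeR's test in that contrast, with medians of 0.03, 0.14 and -0.23. At an unadjusted p under 0.05 these lists held 2, 2 and 0 genes in the same order, beside the same 1681 of 10260 genes. The lists were not counted with another tool. The pathway of CncC, the fly counterpart of Nrf2 that switches on detoxification genes, had 1 of 10 genes called upward: Gclc, of glutathione synthesis (log2FC 0.26, SE 0.050; edgeR adjusted p = 0.0188). Its median of -0.01 was that of all genes. In the families of CG18547, CG9270 and CG4363, 1 relative each passed the test upward, of 8, 12 and 16 tested, beside 1.57% of all genes. The CncC list, which holds no member, had 1 of 10.

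Between Smurfs and non-Smurfs of 30 days relatives passed the test in both directions, beside 8.43% of all genes upward and 5.94% downward. Downward, these were 1 of 2 other sulfotransferases, St4 (log2FC -2.42, SE 0.51; edgeR adjusted p = 0.00952), 1 of 8 other aldo-keto reductases, CG10863 (-0.39, SE 0.067), and 3 of 5 genes of galactose and aldose metabolism, CG32444, Galt and CG10467, at -1.49, -0.87 and -0.41. Upward, they were 2 of 12 transporters, Mdr49 (log2FC 0.74, SE 0.12; edgeR adjusted p = 0.00270) and MRP (0.16), 3 of 24 Rab GTPases, Rab3, RabX4 and Rab19 (0.48, 0.34 and 0.29), and 2 of 16 Ly6-type proteins, CG31675 and CG14401 (0.71 and 0.39). Of the CncC pathway 4 of 10 passed upward, GstD1 (glutathione transferase) with the highest log2FC, 0.48 (SE 0.067; edgeR adjusted p = 0.00158). The members of those families, CG18547, St3, CG9270, CG9008, Rab39 and CG4363, did not pass the test in this contrast.

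Tissue markers moved in some of these contrasts, and their part in the members' changes was not tested. In Smurfs of 40 against 20 days all 5 fat body markers tested (yolk proteins among them) had a positive log2FC, with a median of 1.33 and 0 called upward. All 10 midgut proteases did too, with a median of 1.03 and 3 called, beside 10.5% of all genes. Of 8 Malpighian tubule markers 7 were positive, with a median of 0.64 and 3 called, and of 8 muscle markers 6, with a median of 0.20 and 2 called. Of 10 eggshell genes 9 were positive, with a median of 0.83 and 0 called. Neuronal markers had 2 of 6 positive (median -0.08, 0 called) and haemocyte markers 2 of 4 (median -0.47, 1 called). The summed fat body markers ran from 3596 to 20250 CPM in 40-day Smurfs, against 2503 to 5814 CPM in 20-day Smurfs. In 40-day non-Smurfs the sum was 8837 to 27780 CPM, against 16510 to 26500 CPM in 20-day non-Smurfs. In non-Smurfs, where CG18547, CG9270 and CG4363 passed the test, the median log2FC was -0.38 for the fat body markers (0 called). It was -0.25 for the midgut proteases (1 of 10 called downward, beside 0.322% of all genes). The tubule had 0.15 (5 of 8 positive, 0 called) and muscle 0.18 (7 of 8 positive, 1 called upward, beside 1.57% of all genes). Eggshell genes had -0.50 (0 of 10 positive, 0 called) and neuronal markers 0.00 (3 of 6 positive, 0 called). Haemocyte markers had -0.21 (1 of 4 positive, 1 called downward, beside 0.322% of all genes).

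The 40-day Smurfs p, c7 and c8 had the highest fat body sums of their group. Without them the log2FC between 40-day and 20-day Smurfs ran from 0.49 for Rab39 to 1.25 for CG4363. Its sign had been fixed by the choice of the genes. The mixed 40-day Smurf that was kept had a sum of 11410 CPM, above the 5814 CPM of the highest 20-day Smurf. The part of the fat body in the rise was not tested. In Smurfs against non-Smurfs of 30 days, where CG3699 fell, all midgut proteases, fat body markers and eggshell genes tested had a negative log2FC. Their medians were -1.27, -2.04 and -3.56. Of them 9 of 10, 5 of 5 and 5 of 10 passed the test downward, beside 5.94% of all genes. All 6 neuronal markers were positive and 3 passed upward, beside 8.43% of all genes. No marker list summed to 0 in any sample, the lowest sum being 2.34 CPM of eggshell genes in a 40-day Smurf sample.

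**Figure D4:**
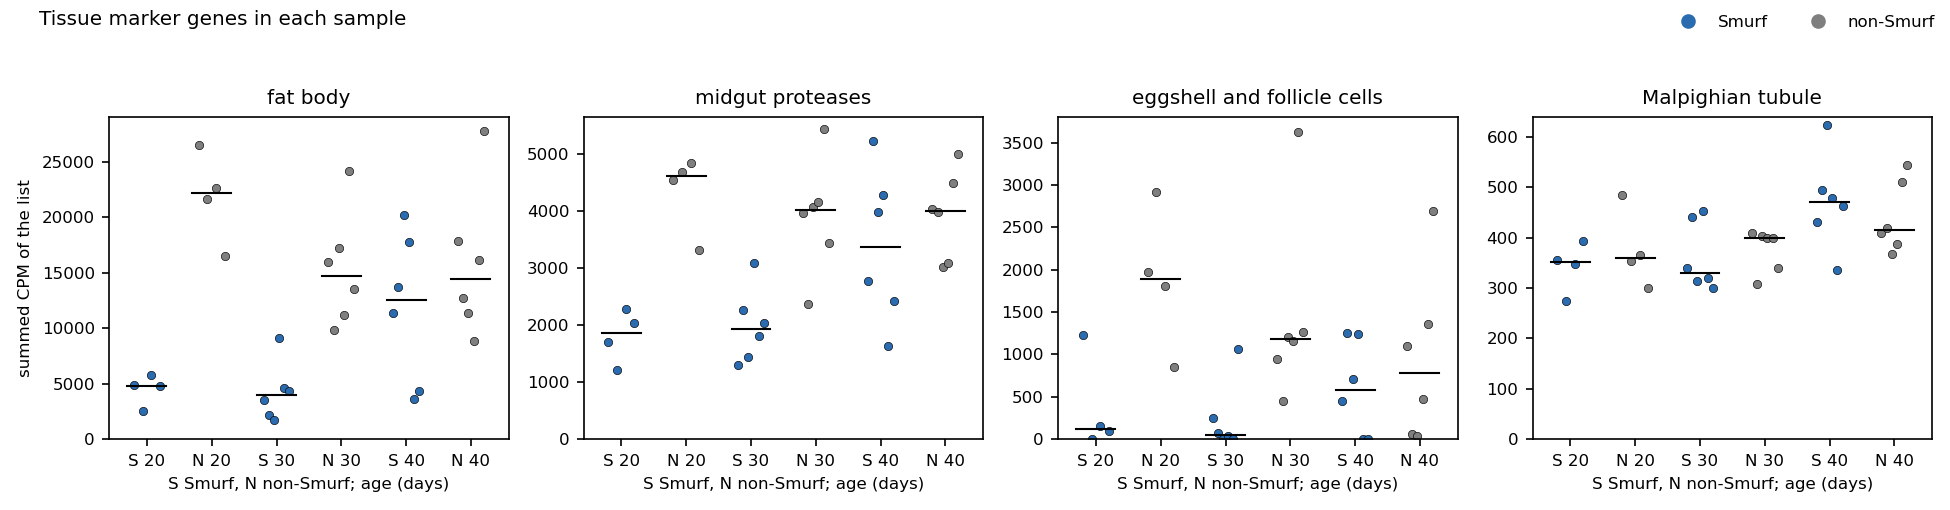
Summed CPM of marker genes of the fat body, midgut, eggshell and Malpighian tubule in each sample (points) with the group median (line), for Smurfs (blue) and non-Smurfs (grey). The fat body list includes yolk proteins. Its sums in 20-day Smurfs, 2503 to 5814 CPM, lie below all 20-day non-Smurfs, 16510 to 26500 CPM, whereas the 40-day groups overlap. Eggshell sums had a median of 121 CPM in 20-day Smurfs and 1888 CPM in 20-day non-Smurfs.

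Outside the list, 5 of 8458 ranked genes followed the members most closely, by Pearson's r of log2 CPM with the members' mean z score over the 32 samples. They were Oda, the antizyme that holds ornithine decarboxylase in check (r = 0.918), CG5254 (r = 0.910), the serine protease Phae2 (r = 0.897), Ttc30 of intraflagellar transport (r = 0.894) and CG32687 (r = 0.894). The samples share the age and Smurf groups, so this is a description. Phae2 had a median of 40.0 CPM in 40-day Smurfs against 14.7 CPM in 20-day Smurfs, and 34.9 CPM in 40-day non-Smurfs against 22.7 CPM in 20-day non-Smurfs. Oda was far more abundant and moved less, with 1158 CPM in 40-day Smurfs against 885 CPM in 20-day Smurfs, and 1041 CPM in 40-day non-Smurfs against 982 CPM in 20-day non-Smurfs.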

How the data were processed

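RNA-Seq was analysed for 32 samples of 8 flies. The authors made strand-specific libraries of mRNA, read both ends of each fragment, filtered no reads, aligned with HISAT2 to BDGP6 and counted per gene with featureCounts, whose strand and multi-mapping settings are not given in the sources used here. The deposited values are raw counts per gene, not normalized or pooled. The genes and gene lists were chosen with earlier results of these data known.

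Counts were tested with edgeR 4.0.16 in R 4.3.3 (TMM, filterByExpr by group, glmQLFit and glmQLFTest, two-sided, Benjamini-Hochberg over all genes tested, threshold 0.05). SE was derived from the F statistic. Ages were contrasted within 16 non-Smurf or 16 Smurf samples, Smurfness within the 12 samples of 30 days, and collection time in 10 non-Smurf samples with age as a factor. CPM were computed after TMM over all samples, with a prior count of 2 for log2 CPM.

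Named genes are the 10 members, per family list the genes past the threshold (up to 3 by size), and the 5 genes most alike over the samples (mean log2 CPM of 2 or more). Of the list entries 9 were not matched. Gene IDs were joined to the BDGP6.54 annotation, where 17599 of 17737 matched. For St3, CG9270 and CG9008, reads of the overlapped stretches cannot be told apart from those of the other strand unless counting used strand. A planned search of promoters for motifs was not run here.

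A check for libraries deposited more than once found no pair of a group equal within sampling noise (chi-square per degree of freedom 6.79 to 117 over 72 pairs), so none were merged. Alternatives were RLE size factors, DESeq2 1.42.0, no filter, at least 10 counts in every sample, a model of 6 groups, 1-day samples only, no mixed samples, collection time as a factor, and leaving out each sample. The Smurf contrast of 40 against 20 days was also fitted without samples p, c7 and c8. That of 30 against 20 days in non-Smurfs was also fitted without the mixed sample labelled 32 days. On simulated data with 100 genes changed by 0.5 and 100 by 1 on the log2 scale, the test of 40 against 20 days in non-Smurfs (10243 genes) recovered 40% and 74% of them. That of Smurfs against non-Smurfs at 30 days (10111 genes) recovered 58% and 84%. Figures were made with Python 3.11.15, pandas 2.3.3, numpy 2.4.6 and matplotlib 3.10.9.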

Additional observations from a re-analysis of the deposited data

Results flagged for a closer look

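Of 60 groups of 6 or 4 samples examined for a value far from the rest of its group, 4 held such a sample, where about 1 in 20 is given by chance. CG3699 had 8.86 CPM in the 1-day sample j of the 30-day Smurfs, against 6.05 to 7.0 CPM in the rest of the group. CG18547 had 35.4 CPM in the 5-hour sample c4 of the 30-day Smurfs, against 25.1 to 27.0 CPM in the rest. The same gene had 18.9 CPM in the 5-hour sample c1 of the 30-day non-Smurfs, against 28.1 to 32.1 CPM in the rest. CG5819 had 102 CPM in the 1-day sample o of the 40-day non-Smurfs, against 51.5 to 70.1 CPM in the rest.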

How the results depend on the processing

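In 40 against 20 days of non-Smurfs, 194 genes and 3 members were called. DESeq2 called 523 genes and 4 members, adding St3 (adjusted p = 0.0312), the model of 6 groups 127 genes, the 1-day samples alone 493 genes, and the samples without the mixed ones 126 genes and 1 member. Leaving out 1 sample gave 39 to 409 genes and 0 to 3 members. CG4363 lost its call in the model of 6 groups (edgeR adjusted p = 0.0583), with 1-day samples (0.0634) and without mixed samples (0.0813), CG18547 lost it without mixed samples (0.0940), and CG4928 gained a call with 1-day samples (log2FC 0.62, edgeR adjusted p = 0.0221). In 30 against 20 days of non-Smurfs, 1 gene and 0 members were called, against 60 genes and 1 member by DESeq2, 2 genes with 1-day samples or without mixed samples, and 3 with collection time as a factor. Leaving out 1 sample gave 1 to 7 genes and 0 members.

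In Smurfs against non-Smurfs of 30 days, 1450 genes and 1 member were called, against 17 genes and 0 members with 1-day samples, and 518 genes without the mixed samples. Leaving out 1 sample gave 898 to 1759 genes, lowest without the mixed non-Smurf, and 1 to 2 members. Between non-Smurfs of 5 hours and 1 day, 9 genes were called, against 533 by DESeq2, 19 without a filter and 0 to 7 with 1 sample left out. Signs turned only for the small changes listed here. In 30 against 20 days CG4928 had 0.046 with 1-day samples and 0.014 without mixed samples, and CG31751 -0.0051 with collection time as a factor. In Smurfs against non-Smurfs of 30 days CG31751 had -0.0093 with RLE, -0.0099 by DESeq2, -0.024 without a filter, -0.00047 with at least 10 counts, -0.034 with 1-day samples and -0.026 without mixed samples, and Rab39 had 0.0097 with 1-day samples. In 5 hours against 1 day Rab39 had 0.0090 with RLE, 0.0088 by DESeq2 and 0.0022 without a filter.

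With 1 sample left out, the log2FC in 40 against 20 days of non-Smurfs ran from 0.22 to 0.46 for CG4928 and from 0.11 to 0.20 for Rab39, and in 30 against 20 days it ran from -0.16 to 0.041 for CG9008, from -0.058 to 0.053 for CG31751 and from -0.22 to 0.022 for CG4928. In Smurfs against non-Smurfs of 30 days it ran from -0.12 to 0.016 for CG18547 and from -0.036 to 0.03027 for CG31751. In 5 hours against 1 day it ran from -0.19 to 0.069 for CG18547, from -0.14 to 0.11 for St3, from -0.011 to 0.065 for CG31751, from -0.040 to 0.14 for CG4363 and from -0.028 to 0.031 for Rab39. Single Smurf and non-Smurf samples of the 1-day and 5-hour collections could not be matched, because the groups share no replicate labels. Smurfs and non-Smurfs were collected together, and with collection time as a factor 1773 genes and 1 member were called at 30 days, and 215 genes and 3 members in 40 against 20 days of non-Smurfs. The cause of these differences was not tested.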
